A study of Arabidopsis thaliana with 6 samples.

Results

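The genes described here are 37 Arabidopsis thaliana loci of the expansin and xyloglucan endotransglucosylase/hydrolase (XTH) families. They were chosen by locus code and comprised 10 alpha-expansins (EXPA), 2 beta-expansins (EXPB), 4 expansin-like genes (EXLA and EXLB) and 21 XTH genes. All 37 were among the 20777 loci of the expression table. The overexpressing plants were a Col-0 line that carries the transcription factor gene GRF5 under the 35S promoter (35S::GRF5), which is active in most plant tissues, and they were compared with wild-type Col-0. RNA came from the vegetative part of seedlings at growth stage 1.03, raised in vitro on MS medium at 22 °C in days of 16 h light and 8 h dark. Each group had 3 ATH1 oligonucleotide arrays, which the labels call biological repeats. The labels describe a single overexpressing line, so effects of GRF5 and of that line's insertion cannot be told apart.

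Growing plant cells are held by a wall of cellulose microfibrils embedded in xyloglucan and pectin. Expansins loosen this network without cutting its polymers, most actively at acid pH, and are known for their part in the enlargement of leaf, root and stem cells. XTH enzymes cut a xyloglucan chain and transfer the cut end either to another chain or to water, which remodels the links between microfibrils. GRF5 belongs to the growth-regulating factors and is known for promoting cell proliferation in leaf primordia, and plants overexpressing it form larger leaves with more cells. The comparison asks which wall-loosening genes differed in transcript level between such seedlings and wild type.

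All levels are the authors' log2 expression values, and differences subtract the wild-type mean from the 35S::GRF5 mean on that log2 scale, so that 1 unit is a doubling. Differences were tested with limma over all loci, with Benjamini-Hochberg adjustment and a threshold of 0.05. GRF5 itself (AT3G13960) read 11.3, 11.4 and 12.1 in the 35S::GRF5 arrays, against 4.73, 4.75 and 4.26 in the wild-type arrays. Correlations between arrays over all loci were 0.993 to 0.997 within groups and 0.990 to 0.995 between groups. Markers of green shoot tissue were high in every array: CA1, GAPB and PSBO1, of carbon fixation and photosystem II, had array means of 13.7 to 13.8, and 0 of these 3 passed the test between the groups or had an unadjusted p under 0.05. None of 11 root markers had a mean above the median of all loci, and their means ran from 3.72 to 5.03. In the test between the groups 0 of these 11 passed. PLT1, a root meristem regulator, was the 1 with an unadjusted p under 0.05 (-0.21, -0.42 to -0.0060), beside 15.5% of all loci. PRP3 (0.19) and EXPA18 (-0.17) had the next smallest p. Wild type replicate 3 stood apart in 15 genes of touch and rapid stress responses, whose list mean was 6.90 there, against 5.37 to 5.71 in the 35S::GRF5 arrays and 5.64 and 5.42 in the other wild-type arrays. RNA of whole shoots mixes all cells, so fewer cells of a type and less transcript per cell cannot be told apart.

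Of the 37 genes, 0 rose and 1 fell in 35S::GRF5, beside 160 of all loci called in either direction (0.77%), 59 of them higher (0.284%) and 101 lower (0.486%). The gene that fell was EXPB1, a beta-expansin. At an unadjusted p under 0.05 there were 11 of the 37, 4 higher and 7 lower, beside 15.5% of all loci, 9.49% higher and 5.97% lower. The groups did not overlap for 7 of the 37, 4 higher and 3 lower, beside 21.7% of all loci, 13.2% higher and 8.45% lower. Differences were negative for 20 of the 37 and for 43.8% of all loci, and the median difference was -0.019 (-0.066 to 0.028 with single arrays left out) against 0.024 over all loci. Array medians over all loci were 6.41, 6.43 and 6.43 in 35S::GRF5 and 6.39, 6.39 and 6.38 in wild type. With each array centred on its median, 25 of the 37 were negative and the median difference of the 37 was -0.057. Centring lowered the difference of every locus by the same amount. The share of all loci negative after centring was not computed, so the count of 25 has no background beside it. Differences larger than 0.5 log2 units in either direction were found for 4 of the 37 and for 2.13% of all loci.

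**Figure D1:**
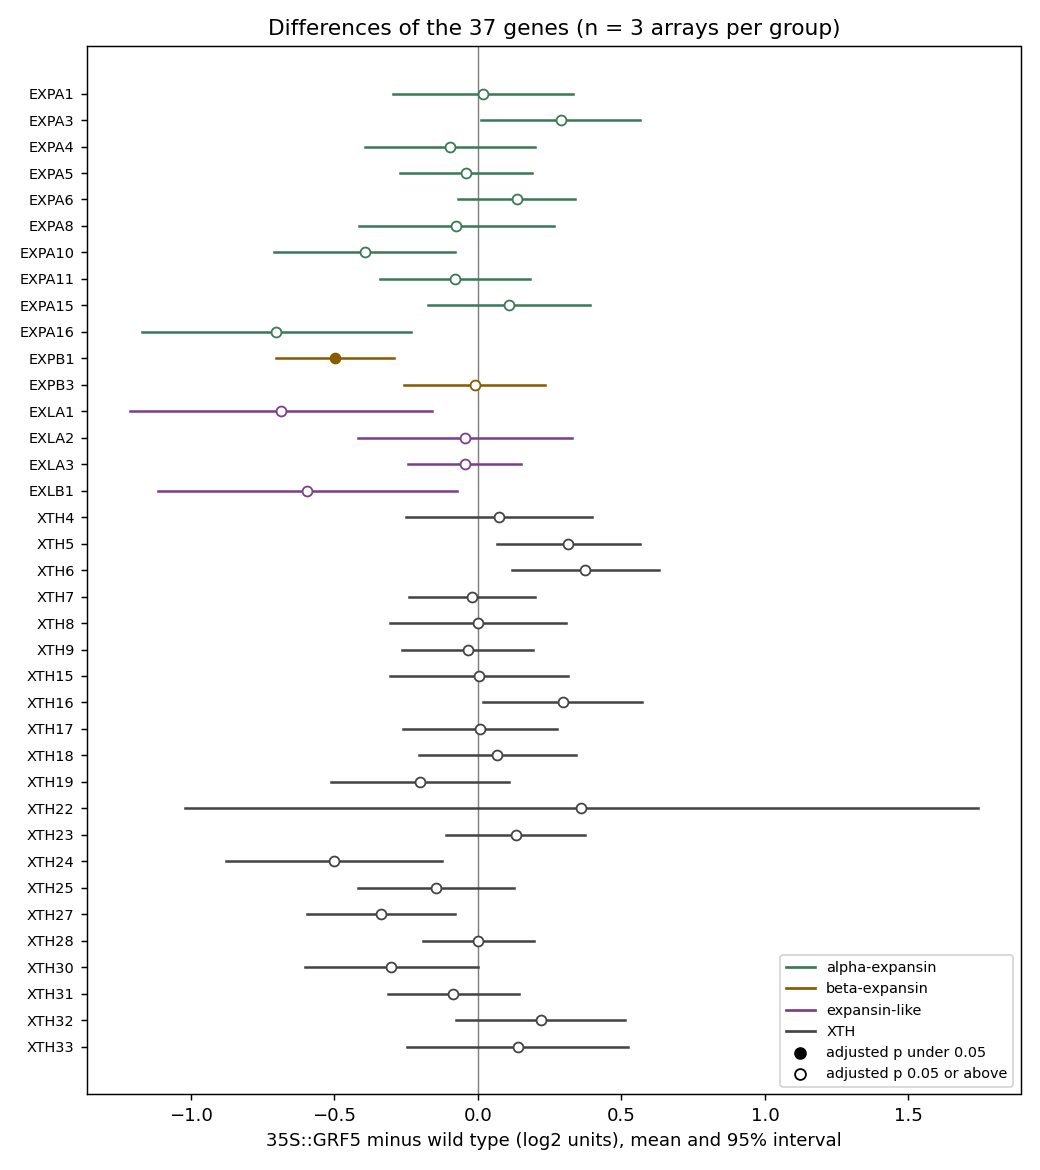
Differences of the 37 genes, 35S::GRF5 minus wild type in log2 units, with their 95% intervals (n = 3 arrays per group), coloured by subfamily. EXPB1 is the only filled point (adjusted p under 0.05), at -0.50, and XTH22 has the widest interval, from -1.02 to 1.74.

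EXPB1 (AT2G20750) belongs to the beta-expansins, a class best known from grass pollen and grass cell walls. It read 7.50, 7.28 and 7.38 in the 35S::GRF5 arrays, against 7.93, 7.82 and 7.91 in the wild-type arrays. Each 35S::GRF5 value lay below every wild-type value, and the spread within groups was small, with means of 7.39 ± 0.11 in 35S::GRF5 and 7.88 ± 0.060 in wild type (SD, n = 3 each). EXPB1 fell by 0.50 log2 units (95% interval -0.70 to -0.29), a 1.41-fold lower level, with an adjusted p of 0.0467 in limma. The call was close to the threshold. It was kept without 35S::GRF5 replicate 1 (adjusted p = 0.0371) and lost without 35S::GRF5 replicate 2 (0.125) or 3 (0.105) and without wild type replicate 1 (0.213), 2 (0.1) or 3 (0.15), while the difference stayed between -0.55 and -0.45. The call was also lost in limma with the replicate number as a block (adjusted p = 0.0805). It was lost too when the gene's own variance was used in place of limma's moderated one (adjusted p = 0.238). That last fit called 0 of all loci higher and 0 lower, so the loss there is not particular to EXPB1. The other beta-expansin measured, EXPB3, read 8.61, 8.96 and 8.91 in 35S::GRF5 and 8.84, 8.89 and 8.78 in wild type. Its groups overlapped, and its difference of -0.011 had an interval of -0.26 to 0.23.

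Alpha-expansins are the main wall-loosening expansins of dicot leaves. Of the 10 measured, 4 had positive and 6 negative differences, 0 passed the test, 3 had an unadjusted p under 0.05, and the median difference was -0.058. The sign of this median was not stable, at 0.036 without 35S::GRF5 replicate 1, 0.015 without wild type replicate 1 and 0.0097 without wild type replicate 3. In 6 of the 10 the lowest value of all arrays was in 35S::GRF5 replicate 1, which held the lowest value of 20.3% of all loci. The list mean was 8.92 in that array, against 9.18 and 9.14 in the other 35S::GRF5 arrays and 9.21, 9.17 and 9.11 in wild type. The part of that array in the results below was not tested beyond leaving it out.

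EXPA16 (AT3G55500) had the lowest difference of the 37, and 39.2% of all loci lay below its mean level. It read 4.98, 5.28 and 5.09 in 35S::GRF5, against 5.60, 6.39 and 5.47 in wild type. The groups did not overlap, but wild type replicate 2 was well above the other wild-type arrays. The difference was -0.70 (-1.17 to -0.23, adjusted p = 0.159), and without wild type replicate 2 it was -0.42.

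EXPA10 (AT1G26770) is known for enlarging leaves and petioles when overexpressed in Arabidopsis. It read 8.47, 8.86 and 8.68 in 35S::GRF5, against 9.10, 9.29 and 8.80 in wild type. The groups overlapped only through 35S::GRF5 replicate 2 and wild type replicate 3. EXPA10 differed by -0.39 (-0.71 to -0.080, adjusted p = 0.218).

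EXPA3 (AT2G37640) read 9.29, 9.77 and 9.60 in 35S::GRF5, against 9.33, 9.27 and 9.19 in wild type. 35S::GRF5 replicate 1 lay among the wild-type values and the other replicates of the line above them. It differed by 0.29 (0.012 to 0.57, adjusted p = 0.302), and by 0.18 without 35S::GRF5 replicate 2.

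The other 7 alpha-expansins had differences from -0.097 in EXPA4 to 0.14 in EXPA6. EXPA6 was the 1 of these whose groups did not overlap, at 10.34, 10.29 and 10.32 in 35S::GRF5 and 10.29, 10.07 and 10.19 in wild type, the closest pair of arrays being nearly equal. EXPA1, which acts in the opening of stomatal guard cells, differed by 0.019 (-0.29 to 0.33), or by -0.019 with arrays centred on their medians, and EXPA5, a growth-related expansin that responds to brassinosteroids, by -0.041 (-0.27 to 0.19). EXPA8 and EXPA11 differed by -0.074 (-0.42 to 0.27) and -0.080 (-0.34 to 0.18), and EXPA15 by 0.11 (-0.17 to 0.39). For these 7 genes the intervals stayed within 0.5 log2 units of 0.

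**Figure D2:**
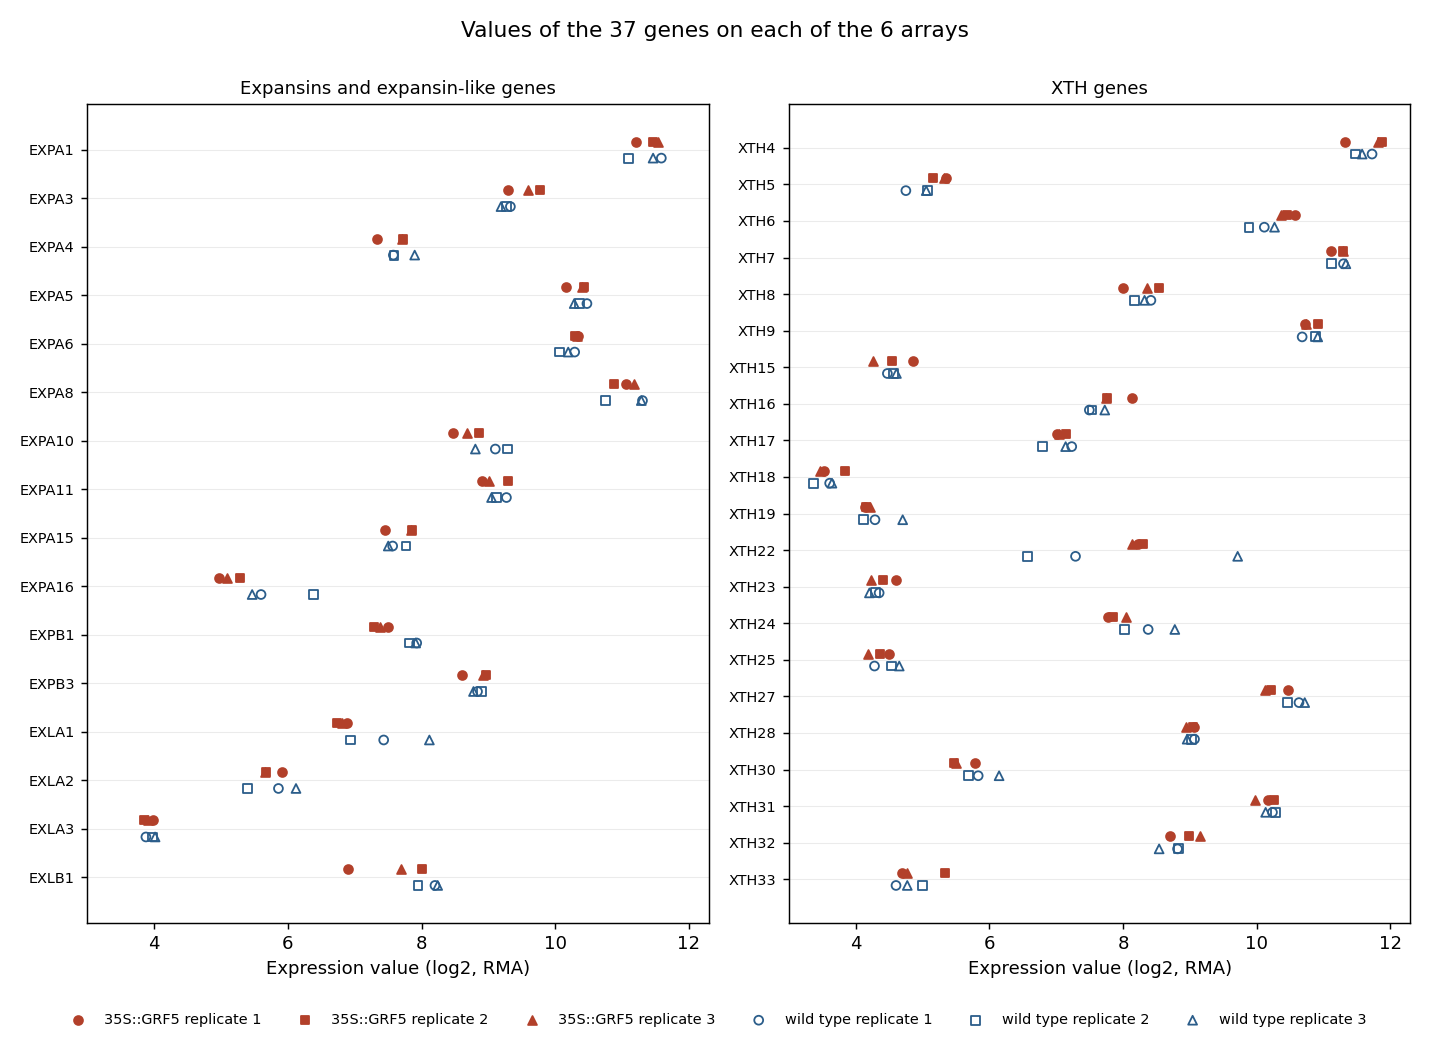
Log2 expression values of the 37 genes on each array, with 35S::GRF5 as filled symbols above wild type as open symbols in each row, and the symbol shape giving the replicate. The groups do not overlap in 7 of the 37: EXPA6, EXPA16, EXPB1, EXLA1, XTH5, XTH6 and XTH16, beside 21.7% of all loci. Wild type replicate 3 lies far to the right in XTH22 and EXLA1.

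Expansin-like proteins share the domains of expansins, but wall-loosening activity has not been shown for them. All 4 had negative differences, 0 passed the test, 2 had an unadjusted p under 0.05, and the median difference was -0.32, or -0.20 without either 35S::GRF5 replicate 1 or wild type replicate 3. All 4 had their highest value in wild type replicate 3, as did 12 of all 37 genes and 15.3% of all loci.

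EXLA1 (AT3G45970) read 6.89, 6.74 and 6.81 in 35S::GRF5, against 7.43, 6.94 and 8.12 in wild type. The 35S::GRF5 arrays lay close together and below every wild-type array, while the wild-type arrays were spread over more than 1 unit. The difference was -0.69 (-1.21 to -0.16, adjusted p = 0.206). Without wild type replicate 3, the array with high touch genes, it was -0.38, and the part of those genes in this difference was not tested.

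EXLB1 (AT4G17030) read 6.90, 8.01 and 7.70 in 35S::GRF5, against 8.20, 7.95 and 8.24 in wild type. 35S::GRF5 replicate 1 was far below the other 5 arrays, and the groups overlapped through 35S::GRF5 replicate 2. Over all arrays EXLB1 differed by -0.59 (-1.12 to -0.072, adjusted p = 0.261), and without that array by -0.28. EXLA2, known for a role in susceptibility to the grey mould fungus Botrytis cinerea, differed by -0.045 (-0.42 to 0.33), and by 0.12 without wild type replicate 3. EXLA3 differed by -0.046 (-0.24 to 0.15) at a low level, with means of 3.91 ± 0.067 in 35S::GRF5 and 3.96 ± 0.071 in wild type, and 14.6% of all loci lay below it. EXLA3 and EXLA1 are next to each other in the genome, with 0 protein-coding genes between them in the reference table.

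Among the 21 XTH genes, 13 differences were positive and 8 negative, 0 passed the test, 5 had an unadjusted p under 0.05, and the median difference was 0.0034, or -0.046 to 0.045 with single arrays left out. Centring arrays on their medians turned XTH8, XTH15, XTH17 and XTH28 negative, each of them within 0.05 of 0. Those with the largest positive differences were XTH6, XTH22, XTH5 and XTH16.

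XTH6 (AT5G65730) read 10.57, 10.46 and 10.36 in 35S::GRF5, against 10.11, 9.88 and 10.27 in wild type. Every 35S::GRF5 value was above every wild-type value. It differed by 0.37 (0.12 to 0.63, adjusted p = 0.162), and by 0.27 to 0.46 with single arrays left out.

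XTH5 (AT5G13870) read 5.35, 5.16 and 5.31 in 35S::GRF5, against 4.75, 5.07 and 5.05 in wild type. The groups were separate by a narrow margin, and the difference was 0.32 (0.067 to 0.56, adjusted p = 0.215). For XTH5, 35.5% of all loci lay below its mean level. XTH16 (AT3G23730) read 8.14, 7.76 and 7.74 in 35S::GRF5, against 7.50, 7.54 and 7.73 in wild type. Its groups nearly touched, and the difference of 0.30 (0.019 to 0.57, adjusted p = 0.292) was 0.17 without 35S::GRF5 replicate 1, the highest array.

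XTH22 (AT5G57560) is TCH4, an XTH gene whose transcript is known to rise within minutes of touch and also with heat, cold, darkness and brassinosteroid. It read 8.23, 8.30 and 8.13 in 35S::GRF5, against 7.29, 6.57 and 9.71 in wild type. The 3 35S::GRF5 arrays agreed closely (mean 8.22 ± 0.085, SD, n = 3), while the wild-type arrays were spread over more than 3 units (mean 7.86 ± 1.65, SD, n = 3), with wild type replicate 3 highest of all arrays and the other 2 lowest. Over all arrays XTH22 differed by 0.36 with an interval of -1.02 to 1.74 (adjusted p = 0.827), which shows neither a rise nor the absence of one.

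The value of XTH22 turned on which wild-type array was used. Without wild type replicate 3 it rose in 35S::GRF5 by 1.29 log2 units (0.87 to 1.71), a 2.44-fold higher level with an adjusted p of 0.0416 in limma, the 1 call among the 37 genes in that fit beside 0.241% of all loci. Without wild type replicate 2 the difference was -0.28 and without wild type replicate 1 it was 0.076. In wild type replicate 3 XTH22 was 2.79 units above the mean of the other wild-type arrays, a factor of 6.90. In the same contrast the calcium-binding protein gene TCH3 was 2.09 units higher, TCH2 1.49, the zinc finger gene STZ 2.98 and the ethylene response factor gene ERF6 2.36. Of the 15 touch and rapid stress genes, 14 had their highest value in that array. Among these 15, 0 passed the test between the groups, 2 had an unadjusted p under 0.05, all had negative differences, and the median was -0.46 over all arrays and -0.037 without wild type replicate 3. The smallest p among them belonged to ERF4 (-0.47, -0.77 to -0.17), RHL41 (-0.19, -0.38 to -0.0013) and ZAT6 (-0.61, -1.32 to 0.099). What share of the XTH22 values came with the touch response was not tested.

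**Figure D3:**
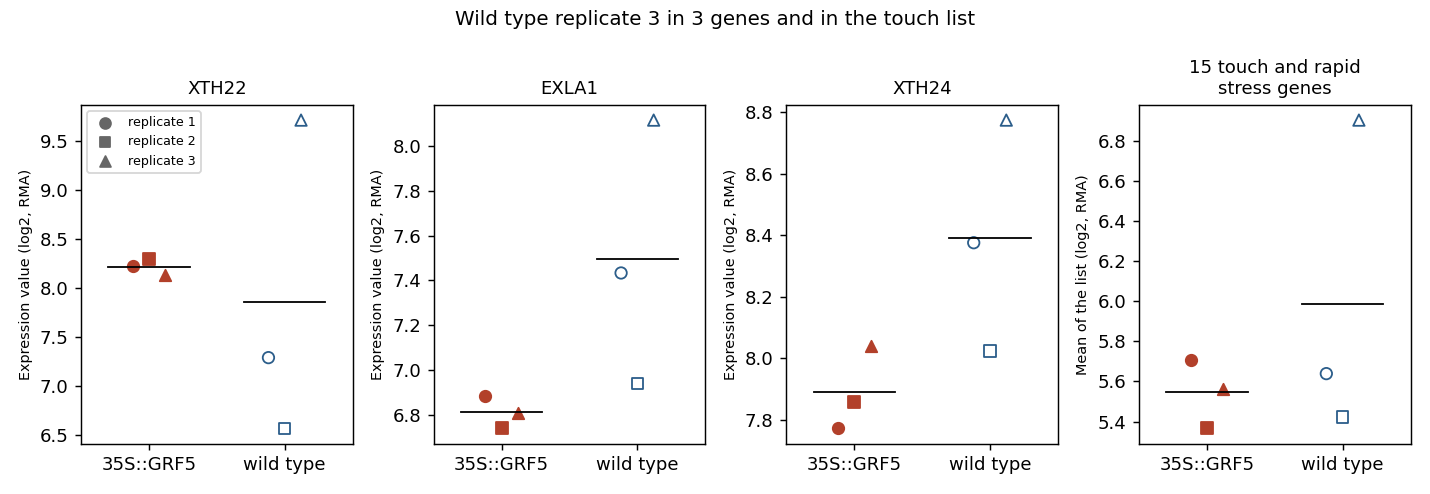
Log2 expression values of XTH22, EXLA1 and XTH24 and the mean of 15 touch and rapid stress genes, 35S::GRF5 on the left and wild type on the right, with 1 point per array, the symbol shape giving the replicate and a line at the group mean. Each panel has its own axis, which does not start at 0, and wild type replicate 3 is the highest point in all 4 panels.

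The other genes more than 0.5 units above the remaining wild-type arrays in wild type replicate 3 were EXLA1 (by 0.93), XTH24 (0.57) and XTH19 (0.50). With XTH22 these made 4 of the 37, beside 1.22% of all loci and 11 of the 15 touch genes. XTH25, which lies next to XTH22 with 0 protein-coding genes between them, read 4.49, 4.36 and 4.18 in 35S::GRF5 and 4.28, 4.54 and 4.65 in wild type. It differed by -0.15 (-0.42 to 0.13) and was 0.24 higher in wild type replicate 3 than in the other wild-type arrays.

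XTH24 (AT4G30270), first described as the meristem transcript MERI5, read 7.77, 7.86 and 8.04 in 35S::GRF5, against 8.38, 8.02 and 8.77 in wild type. Only 35S::GRF5 replicate 3 and wild type replicate 2 overlapped. XTH24 differed by -0.50 (-0.88 to -0.12, adjusted p = 0.2), and by -0.31 without wild type replicate 3.

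XTH27 (AT2G01850), also called EXGT-A3 and known from tracheary elements of leaf veins, read 10.47, 10.21 and 10.12 in 35S::GRF5, against 10.63, 10.46 and 10.72 in wild type. The groups overlapped only in that the highest 35S::GRF5 array and the lowest wild-type array were nearly equal. It differed by -0.34 (-0.60 to -0.080, adjusted p = 0.204), and by -0.44 to -0.27 with single arrays left out. XTH30, of the same branch of the family, read 5.79, 5.47 and 5.50 in 35S::GRF5 and 5.83, 5.69 and 6.14 in wild type. It differed by -0.30 (-0.60 to 0.00096), and by -0.17 without wild type replicate 3.

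XTH28, known for stamen filament growth and of the branch of XTH27 and XTH30, read 9.07, 9.05 and 8.94 in 35S::GRF5 and 9.07, 9.03 and 8.96 in wild type. Its difference was 0.0012, with the narrowest interval of the set, -0.19 to 0.19. XTH31 and XTH32 are of the branch that holds the xyloglucan hydrolases. XTH31 read 10.16, 10.27 and 9.97 in 35S::GRF5 and 10.23, 10.29 and 10.13 in wild type, with a difference of -0.086 (-0.31 to 0.14). XTH32 read 8.70, 8.99 and 9.15 in 35S::GRF5 and 8.82, 8.82 and 8.54 in wild type, and its difference was 0.22 (-0.074 to 0.51), or 0.34 without 35S::GRF5 replicate 1, 0.12 without 35S::GRF5 replicate 3 and 0.13 without wild type replicate 3.

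XTH4 had the highest mean value of the set and XTH18 the lowest, although values of different genes come from different probes and are not a scale of transcript amounts. XTH4 read 11.32, 11.87 and 11.81 in 35S::GRF5 and 11.72, 11.48 and 11.58 in wild type, so 35S::GRF5 held both the lowest and the highest array. It differed by 0.075 (-0.25 to 0.40). XTH7, XTH8 and XTH9 differed by -0.019 (-0.24 to 0.20), 0.0016 (-0.30 to 0.31) and -0.035 (-0.26 to 0.19).

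XTH17, XTH18 and XTH19 are best known from roots. XTH18 read 3.52, 3.84 and 3.47 in 35S::GRF5 and 3.61, 3.37 and 3.64 in wild type, and 5.74% of all loci lay below its mean, so its difference of 0.068 (-0.20 to 0.34) may be one of background signal. XTH19, next to XTH18 in the genome, differed by -0.20 (-0.51 to 0.11), or by -0.035 without wild type replicate 3, and XTH17, on another chromosome, by 0.0073 (-0.26 to 0.28). XTH24, XTH18 and XTH19 are consecutive genes with 0 protein-coding genes between neighbours, and their differences were -0.50, 0.068 and -0.20. XTH15 and XTH23 differed by 0.0034 (-0.31 to 0.31) and 0.13 (-0.11 to 0.37). XTH33, whose protein is thought to stay anchored in the membrane, differed by 0.14 (-0.25 to 0.52). Group means of these 3 genes ran from 4.28 to 4.93.

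Precision differed between these genes. Half-widths of the 95% intervals ran from 0.19 in XTH28 to 1.38 in XTH22, with a median of 0.28 log2 units, a factor of 1.21, against 0.23 and 1.17 over all loci. The interval lay within 1 unit of 0 for 33 of the 37, the exceptions being EXPA16, EXLA1, EXLB1 and XTH22, beside 98.9% of all loci. It lay within 0.5 units for 21 of the 37, beside 82.0% of all loci. The spread between replicates was above the median of all loci for 29 of the 37.

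**Figure D4:**
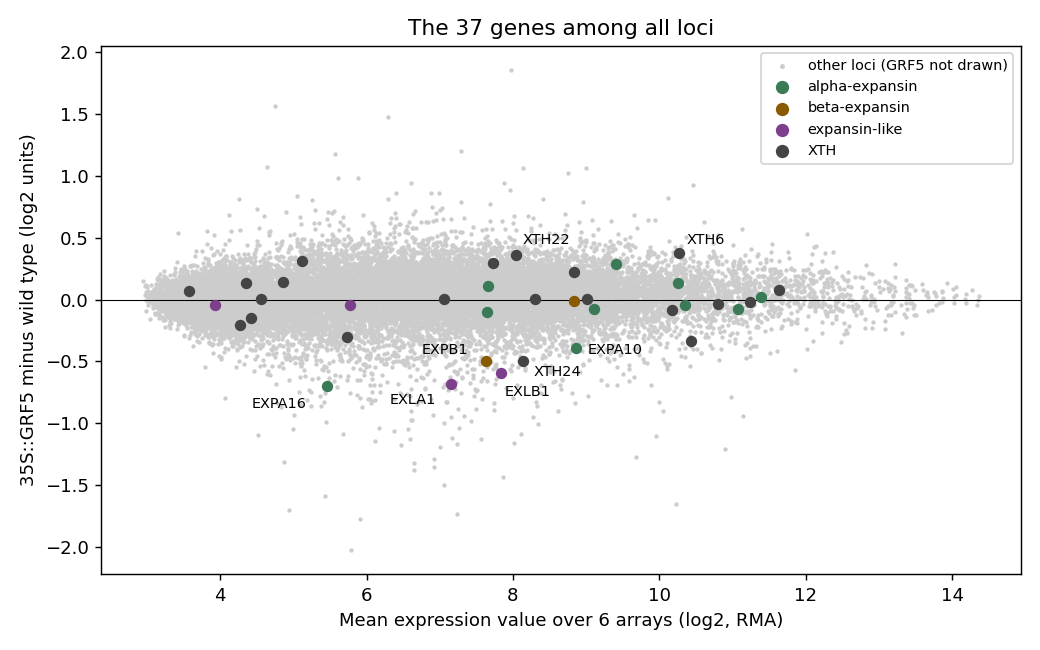
Difference between 35S::GRF5 and wild type (log2 units) against the mean log2 expression value over the 6 arrays, with all other loci in grey, GRF5 itself left out, and the 37 genes coloured by subfamily. The genes with the largest negative differences are EXPA16, EXLA1, EXLB1, XTH24 and EXPB1, and none of the 37 exceeds 1 unit in size.

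A list of 24 further expansin and XTH genes, not the whole of both families, held no call. EXPB4 had no row in the expression table under its listed locus code, and of the 23 measured 0 rose and 0 fell. Their differences ran from -0.23 to 0.18 with a median of -0.0067, 0 had an unadjusted p under 0.05, and 13 had means below the 25th percentile of all loci. The smallest p among them belonged to XTH29 (0.18, -0.062 to 0.43), XTH3 (-0.23, -0.54 to 0.082) and EXPA18, a root hair expansin (-0.17, -0.42 to 0.077).

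Of 18 genes that make, trim or support the xyloglucan and cellulose network, 0 rose and 0 fell. There were 3 at an unadjusted p under 0.05, 1 of them higher, beside 15.5% of all loci, 9.49% higher. The median difference was -0.0042, or -0.063 to 0.030 with single arrays left out. BGAL10, a galactosidase that trims xyloglucan side chains, differed by 0.24 (0.046 to 0.44, adjusted p = 0.223). MUR3, which adds galactose to xyloglucan, differed by -0.25 (-0.45 to -0.048, adjusted p = 0.223), and CSLC4, which makes the glucan backbone, by -0.29 (-0.56 to -0.014, adjusted p = 0.3). The groups did not overlap for these 3 or for COB and FER, which made 5 of the 18, beside 21.7% of all loci. The plasma membrane proton pumps AHA1 and AHA2, which acidify the wall, differed by 0.063 (-0.13 to 0.25) and 0.046 (-0.17 to 0.26), and the cellulose synthase genes CESA1, CESA3 and CESA6 of the primary wall by -0.11, -0.21 and 0.0061, none past the test.

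Without wild type replicate 3, 9 of the 37 had an unadjusted p under 0.05, 4 higher and 5 lower, beside 12.1% of all loci, XTH22 was the 1 call, and the median difference was 0.012. Without 35S::GRF5 replicate 1 there were 12, 6 in each direction, beside 15.9% of all loci, EXPB1 was the 1 call, beside 0.895% of all loci, and the median was 0.028.

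**Figure D5:**
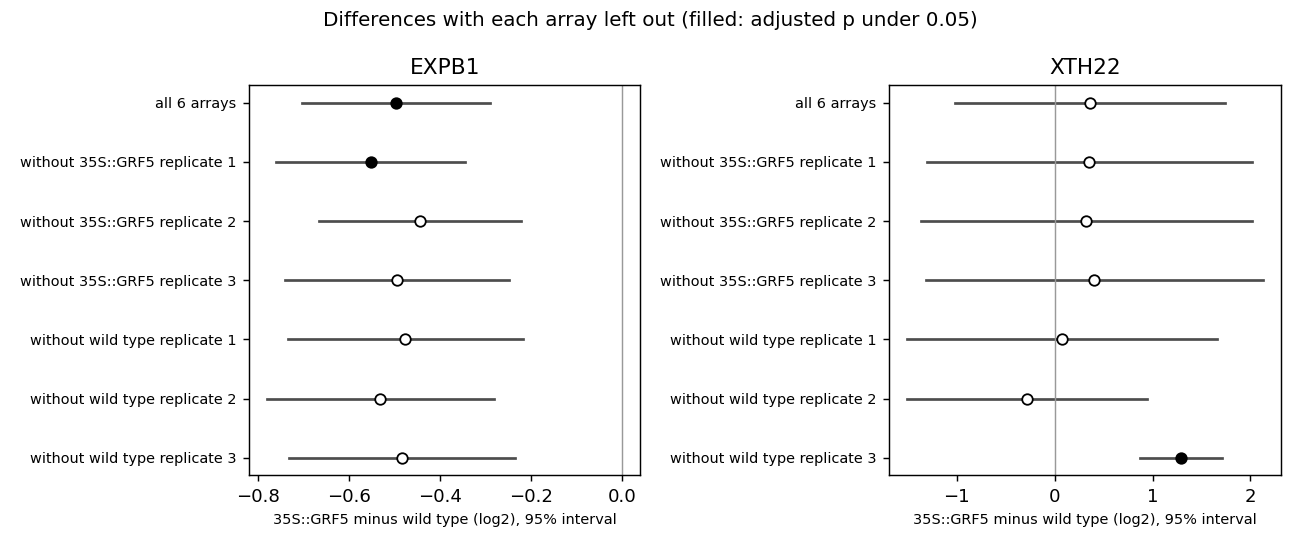
Differences of EXPB1 and XTH22, 35S::GRF5 minus wild type in log2 units with 95% intervals, over all 6 arrays and with each array left out, filled where the adjusted p was under 0.05. EXPB1 stays between -0.55 and -0.45 in every fit, while XTH22 moves between -0.28 and 1.29.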

How the data were processed

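RNA was measured on 6 ATH1 arrays, 3 of 35S::GRF5 and 3 of wild type. The authors deposited log2 values at 1 row per locus code, and the submitters' processing notes name RMA. RMA corrects background, equalises the distributions of arrays and summarises probes. The map from probes to loci and the version are not given in the sources used here, and no detection calls were used, so low values may be background. Probes of close paralogs may share signal. Precision is limited by the number of arrays.

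Groups were compared in R 4.3.3 by lmFit and eBayes of limma 3.58.1 (two-sided, Benjamini-Hochberg over 20777 loci, no filter). Names came from a TAIR10.1 gene table, which held 20508 of the loci, all 37 members included. On simulated data over 20777 genes in 5 runs this fit called 63.6% of changes of 0.5 log2 units and 99.6% of changes of 1. The 37 genes had a median SD within groups of 0.179, against 0.125 over all loci. These shares may therefore not hold for the 37 genes, and they do not show that uncalled genes were unchanged. The members, the other lists and the tests were chosen with earlier results of these data known, and no list was tested as a set. Values per array were given for members with an unadjusted p under 0.05, the 5 largest differences in each direction and the highest and lowest member, and differences for the 3 smallest p of the other lists; further members shown were chosen after their values were seen. Alternative settings were median centring, a replicate block, quantile normalization, filters on low mean values, trend and robust estimation, each gene's own variance, array weights and leaving out each array. The labels give no batch. RBCS1A, CAB1 and EXPB4 had no row in the expression table under their listed locus codes and were not analysed.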

Additional observations from a re-analysis of the deposited data

How the results depend on the processing

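Of the 37 genes, 20 kept their direction under all 14 alternatives. The call of EXPB1 was kept with median centring, quantile normalization, both filters, trend and robust estimation and array weights (adjusted p 0.0204 to 0.0457) and lost with the replicate number as a block (0.0805) or its own variance (0.238), where 0 genes of the set fell. Deviations of same-numbered arrays correlated at r = -0.053, 0.058 and -0.11, and those of differently numbered arrays at -0.081 to 0.11. With 3 arrays per group, these values cannot settle whether the numbers pair the arrays. With single arrays left out, 0 to 1 of the set fell and 0 to 1 rose, and over all loci 6 to 99 rose and 11 to 87 fell. Over all loci, where 59 rose and 101 fell, 36 rose with the replicate number as a block, 116 with trend and robust estimation, 134 with array weights, beside 160 that fell, and 0 rose and 0 fell with each gene's own variance; the cause was not tested. Small differences changed sign. With median centring EXPA1 differed by -0.019, XTH8 by -0.037, XTH15 by -0.035, XTH17 by -0.031 and XTH28 by -0.037. With quantile normalization EXPA1 differed by -0.031, XTH8 by -0.045, XTH17 by -0.026 and XTH28 by -0.032. With array weights EXPB3 differed by 0.026, XTH7 by 0.0044, XTH9 by 0.0023, XTH15 by -0.062, XTH17 by -0.013 and XTH28 by -0.032. With single arrays left out, the differences of 17 genes changed sign, over these ranges: EXPA4 -0.16 to 0.028, EXPA5 -0.091 to 0.044, EXPA11 -0.19 to 0.0047, EXPB3 -0.078 to 0.10, XTH7 -0.085 to 0.038, XTH9 -0.11 to 0.0085, XTH15 -0.15 to 0.15, XTH28 -0.028 to 0.041, EXPA1 -0.12 to 0.12, EXPA8 -0.26 to 0.021, XTH4 -0.026 to 0.25, XTH8 -0.12 to 0.15, XTH17 -0.12 to 0.095, XTH18 -0.046 to 0.14, XTH33 -0.067 to 0.26, XTH22 -0.28 to 1.29 and EXLA2 -0.24 to 0.12. Among these, XTH22 passed the threshold in the fit without wild type replicate 3. With single arrays left out, EXPB1 differed by -0.55 to -0.45. The width of an interval could turn on a single array: that of XTH22 reached from -1.02 to 1.74 over all arrays and from 0.87 to 1.71 without wild type replicate 3, and the median half-width over the 37 genes was 0.28 log2 units.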
